A study of Mus musculus with 32 samples.

Results

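The baseline of the study is the transcriptome of BNL-MEA liver tumours from mice that received vehicle, with no drug. All libraries labelled as vehicle were taken, which gave 11 of the 32 tumour libraries of the series. BNL-MEA is a mouse hepatocellular carcinoma line, and its cells were implanted in the liver of Balb/c mice, a strain with an intact immune system. The study used these tumours to follow the response to regorafenib, an oral inhibitor of several receptor kinases, alone or beside antibodies, and vehicle groups were sequenced with each of 3 experiments. The vehicle groups are those of the dose experiment (batch p112, n = 4), the DC-101 experiment (batch p103, n = 4) and the anti-PD1 experiment (batch p101, n = 3). Their labels share strain, cell line, tissue and treatment and differ only in the batch. The study's methods give 5 days of treatment for the regorafenib and DC-101 comparison, and the harvest time of the anti-PD1 experiment is not given in the sources used here. The methods also name an isotype control antibody as the alternative to anti-PD1, in repeated doses after implantation. The labels do not say whether the vehicle mice of the anti-PD1 experiment received it. The labels give neither age nor sex. The study speaks of separate tumours for the anti-PD1 experiment, and otherwise of bulk tumour RNA from mice, without saying whether each library is a separate animal. Within each group every pair of libraries differed by more than counting error (chi-square per degree of freedom at least 12.9), and p-values measure the spread between these samples. As a model the group is limited to a single cell line, and each piece of tissue could hold host liver and host stroma beside tumour cells.

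Liver cancers arise from hepatocytes, the cells that make albumin, clotting factors and apolipoproteins. Cultured lines often lose that programme and carry mesenchymal genes such as vimentin instead. A tumour in the liver also recruits fibroblasts that lay down collagen, endothelial cells that form vessels, and macrophages and other leukocytes, while Kupffer cells and sinusoidal endothelium belong to the normal liver. RNA of a whole tumour mixes all of these. Fewer cells of a type and less RNA per cell cannot be told apart in such bulk samples.

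The libraries held from 16767130 to 26392768 counts and from 21979 to 24114 detected genes. Levels are given as CPM (relative to the library total after TMM scaling) or as log2 CPM with a prior count of 2, and levels of different genes are compared as TPM, which also divides by exon length. Of the 54446 genes in the tables, 16540 had enough counts to be tested. The first principal component held 37.2% of the variance and the second 25.8%, and 46.4% of all variance lay within experiments. In 3 libraries a feature stood apart. Dose replicate 2 had 0.407% of its counts on genes annotated as antisense, against 0.0744% to 0.0836% in the other dose libraries, and mt-Nd6, the mitochondrial gene on the strand opposite to most others, took 0.846% of its mitochondrial counts, against 0.0445% to 0.0547%. Anti-PD1 replicate 2 had relatively few counts on long genes: the median deviation of genes over 8000 exonic bases minus that of genes under 2000 bases was -1.30 on the log2 scale, and between -0.61 and 0.43 in the other libraries. Its ribosomal protein share was 9.63% (3.61% to 6.87% elsewhere) and its mitochondrial share 0.26%. DC-101 replicate 4 held skeletal muscle genes, described below. The part of each feature in any result was not tested, but fits without these 3 libraries are given below.

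Ribosomal proteins, elongation factors and secreted or cytoskeletal proteins of mesenchymal and myeloid cells were the highest expressed nuclear protein-coding genes. By the mean of the 3 experiment means, the order was Rplp1 (10020 TPM), Eef1a1 (9500 TPM), Lgals1 (8356 TPM), Apoe (6285 TPM), Rps15 (6006 TPM), Eef2 (5825 TPM), B2m (5774 TPM), Lyz2 (5502 TPM), Rpl8 (5132 TPM), Rpl32 (4394 TPM), Vim (3939 TPM), Rpl4 (3530 TPM), S100a6 (3487 TPM), Rpl36 (3369 TPM) and Alb (3323 TPM). Above them, the mitochondrially encoded mt-Co1, a subunit of cytochrome oxidase, had 13760 TPM. Rplp1, Rpl8, Rpl32, Rpl4, Rpl36 and Rps15 are ribosomal proteins, Eef1a1 and Eef2 carry translation forward, Lgals1 encodes galectin-1, B2m the light chain of MHC class I, Lyz2 the lysozyme of macrophages and neutrophils, and S100a6 a small calcium-binding protein.

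These genes were not equally steady between tumours. Vim, an intermediate filament of mesenchymal cells, had the smallest SD of log2 CPM of the 15 (0.19) and ranged from 3006 TPM in dose replicate 2 to 4893 TPM in DC-101 replicate 1. Its mean was 3512 ± 433 TPM (SD, n = 4) in the dose, 4430 ± 357 TPM (n = 4) in the DC-101 and 3877 ± 460 TPM (n = 3) in the anti-PD1 experiment, and in CPM the groups overlapped. Alb, serum albumin, had the largest SD (3.29) and ranged from 16.4 TPM in DC-101 replicate 4 to 8378 TPM in anti-PD1 replicate 3. Lyz2 lay between 2817 and 3765 TPM in the dose libraries and between 6117 and 11200 TPM in the anti-PD1 libraries, so those groups did not overlap (log2 difference 1.44, SE 0.32, edgeR adjusted p 0.014). The mitochondrial mt-Co1 ran from 1736 TPM in anti-PD1 replicate 2 to 24260 TPM in dose replicate 2. Only 7 of the 15 names stayed when the median transcript length replaced the merged exon length, and Rplp1, Rpl36 and Eef1a1 share 60%, 81.1% and 39.4% of their 50-base windows with other genes, so reads of copies may be split among them.

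**Figure D1:**
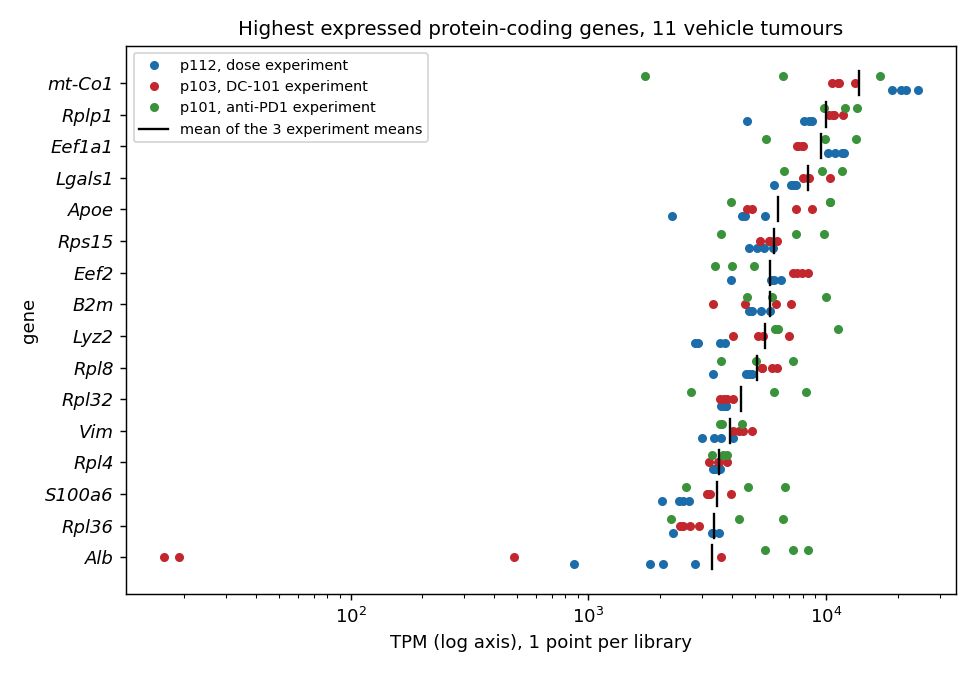
Expression of the 15 highest nuclear protein-coding genes and of mt-Co1 in TPM (log axis), with 1 point per vehicle library coloured by experiment and a black bar at the mean of the 3 experiment means. Most genes stay within a few-fold of their bar, while Alb runs from 16.4 to 8378 TPM and mt-Co1 from 1736 to 24260 TPM.

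The average levels of the mesenchymal and matrix lists were similar in every library, although single members were not, while the epithelial and liver lists varied widely. The level of a list averages log2 CPM over those of its genes that were tested. It is not divided by gene length, so levels of different lists are not ranked here. The fibroblast and matrix list (20 genes) was between 7.63 in anti-PD1 replicate 2 and 8.53 in anti-PD1 replicate 3. The mesenchymal list (13 genes) was between 6.96 and 7.57 in the same libraries. The epithelial list (12 tested genes) was between -1.07 in DC-101 replicate 4 and 3.47 in anti-PD1 replicate 1.

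Single genes had their own patterns. Fn1, fibronectin, had a level of 8707, 6740, 8319 and 6962 CPM in the dose libraries, 7190, 10985, 8747 and 8487 CPM in the DC-101 libraries and 4409, 2380 and 11660 CPM in the anti-PD1 libraries. Col1a1, a chain of type I collagen, had 3547, 2390, 4054 and 3760 CPM, then 2183, 3709, 2453 and 2403 CPM, then 1739, 450 and 4509 CPM in the same order. The anti-PD1 experiment thus held both the lowest and the highest library for each gene, and its groups overlapped with the others. Col3a1 ranged from 1826 to 5349 CPM and Pdgfra, a receptor of fibroblasts, from 273 to 554 CPM, while Dcn, the matrix proteoglycan decorin, ranged from 243 CPM in DC-101 replicate 4 to 724 CPM in dose replicate 2. Among epithelial genes Epcam, a surface adhesion molecule of epithelia, was between 0.0862 and 10.9 CPM and Cdh1, E-cadherin, between 3.76 and 23.6 CPM. Cdh2, N-cadherin, was between 4.57 and 51.7 CPM, and Zeb1, a repressor of epithelial genes, between 61.7 and 146 CPM.

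Fetal liver and liver cancer markers were found at very different levels. Afp, alpha-fetoprotein, lay between 0.127 and 1.13 CPM and Gpc3, glypican-3, between 0.686 and 4.05 CPM except for 19 CPM in anti-PD1 replicate 3. H19, an imprinted fetal RNA, had 68.8 CPM in DC-101 replicate 4 and 79.1 CPM in anti-PD1 replicate 3 and from 0.869 to 9.38 CPM in the other 9. Hmga2 and Igf2bp1, fetal growth genes, were at 149 to 621 CPM and 17.2 to 79.4 CPM. Both were lower in the anti-PD1 than in the DC-101 experiment (edgeR log2 differences -1.26 and -1.34, adjusted p 0.034 and 0.019), and with Sox9 they made 3 of 11 genes of the oncofetal list lower in that pair, where 4.73% of all genes were. Another 3 of the list (Afp, Cd24a and Prom1) were higher, where 5.26% of all genes were, and the median log2 difference of the list was 0.43. All 6 calls were lost with the hepatocyte list level as a covariate, without DC-101 replicate 4 and without the 3 libraries that stood apart. That level did not overlap between the anti-PD1 (6.83 to 7.27) and DC-101 libraries (-0.60 to 5.81). A loss of calls with it therefore cannot tell the level from the contrast itself. Without DC-101 replicate 1 there were 1 higher and 0 lower genes, without DC-101 replicate 2 there were 0 and 2, without anti-PD1 replicate 2 there were 1 and 1, and without dose replicate 1, 3 or 4 or anti-PD1 replicate 1 there were 1 and 2. Only 1 was higher with RLE or total count scaling, with no filter on low counts and with all 32 libraries in the fit. Set against the label hepatocellular carcinoma, Afp was near the floor in every library and Alb was present in all of them, but at levels between 10.6 and 6179 CPM.

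Hepatocyte genes showed by far the widest spread. The list level (38 genes) was 3.99, 5.92, 5.17 and 7.0 in dose replicates 1 to 4. It was -0.37, 2.92, 5.81 and -0.60 in DC-101 replicates 1 to 4, and 7.22, 6.83 and 7.27 in anti-PD1 replicates 1 to 3. DC-101 replicates 1 and 4 were thus almost free of this programme, and the anti-PD1 libraries all held much of it. Alb had 706, 1592, 1512 and 2300 CPM in the dose, 13, 321, 2488 and 10.6 CPM in the DC-101 and 6156, 5724 and 6179 CPM in the anti-PD1 libraries. Apoa1, the main protein of high-density lipoprotein, moved likewise from 1.08 CPM in DC-101 replicate 4 to 1511 CPM in anti-PD1 replicate 1, and Ttr, transthyretin, from 0.560 to 523 CPM. Summed over the list, the CPM were between 88.0 in DC-101 replicate 4 and 19799 in anti-PD1 replicate 1.

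By edgeR few hepatocyte genes were past the threshold between experiments, but that count rested on single libraries and on the tool. Of the 38, 3 were higher in the anti-PD1 than in the DC-101 experiment, where 5.26% of all genes were, so the share was near the background. Those 3 were Tat, an enzyme of tyrosine breakdown, Trf, transferrin, and Cyp7a1, which starts bile acid synthesis. The median log2 difference of the list was 3.08, where that of all genes was 0.12. All 3 calls were lost with the list's own level as a covariate, with no filter on low counts, without DC-101 replicate 1, 2 or 4, without anti-PD1 replicate 2 and without the 3 libraries that stood apart. The covariate is made of these same genes and did not overlap between the groups, so the loss with it was largely fixed in advance. The count was 1 with all 32 libraries in the fit, 2 without dose replicate 1, 2 or 3 or anti-PD1 replicate 1, 8 of 33 with DESeq2, 28 with limma-voom and 28 without DC-101 replicate 3. Between the DC-101 and dose experiments 1 of the 38 was lower, where 3.95% of all genes were. Without DC-101 replicate 3 that count was 18, and the list median went from -1.83 to -4.35.

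Genes of Kupffer cells and of the liver sinusoid also varied widely in level. The liver sinusoid list (7 genes, among them Stab2 and Clec4g, scavenging receptors of those vessels) was at 2.45, 2.94, 3.43 and 4.46 in the dose libraries. It was at 0.89, 1.29, 3.46 and 0.67 in the DC-101 libraries and at 4.75, 4.14 and 4.32 in the anti-PD1 libraries. The Kupffer cell list (6 genes) was at 1.13, 1.72, 1.98 and 2.95, at 0.24, -1.06, 1.86 and -0.22, and at 3.33, 3.43 and 5.28 in the same order. In the dose experiment replicate 4 was the highest and replicate 1 the lowest library on all 3 lists. Clec4f, a lectin of Kupffer cells, had 4.48, 8.77, 11.6 and 36.1 CPM in the dose libraries, 0.0423, 0.0375, 13.8 and 0.0862 CPM in the DC-101 libraries and 33.6, 18.3 and 17.4 CPM in the anti-PD1 libraries. Only DC-101 replicate 3 was within the range of the other experiments.

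Of the 6 Kupffer genes, 3 were higher in the anti-PD1 than in the dose experiment, where 7.66% of all genes were. They were Vsig4, a complement receptor, at 16.5, 28.4 and 45 CPM against 2.38 to 10.9 CPM (log2 difference 2.36, SE 0.61, adjusted p 0.027), Marco, a scavenger receptor, at 1.63, 2.11 and 26.9 CPM against 0.0915 to 0.45 CPM (5.18, SE 1.01, adjusted p 0.0065), and the folate receptor gene Folr2 (2.63, SE 0.58, adjusted p 0.013), whose exons overlap another gene on the opposite strand over 63.1% of their length. Against the DC-101 experiment Vsig4, Marco and Cd5l, a secreted macrophage protein, were higher, where 5.26% of all genes were. The count against the dose experiment was 1 without anti-PD1 replicate 2 and 1 without the 3 libraries that stood apart, and that against the DC-101 experiment was 1 without DC-101 replicate 2 or 4 and 5 without replicate 3. The hepatocyte level moved with these genes: with it as a covariate the 3 calls against the dose experiment were still 3, and those against the DC-101 experiment were lost, as they were without the 3 libraries. The level did not overlap between the anti-PD1 and DC-101 libraries, so it cannot be told apart from that contrast.

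**Figure D2:**
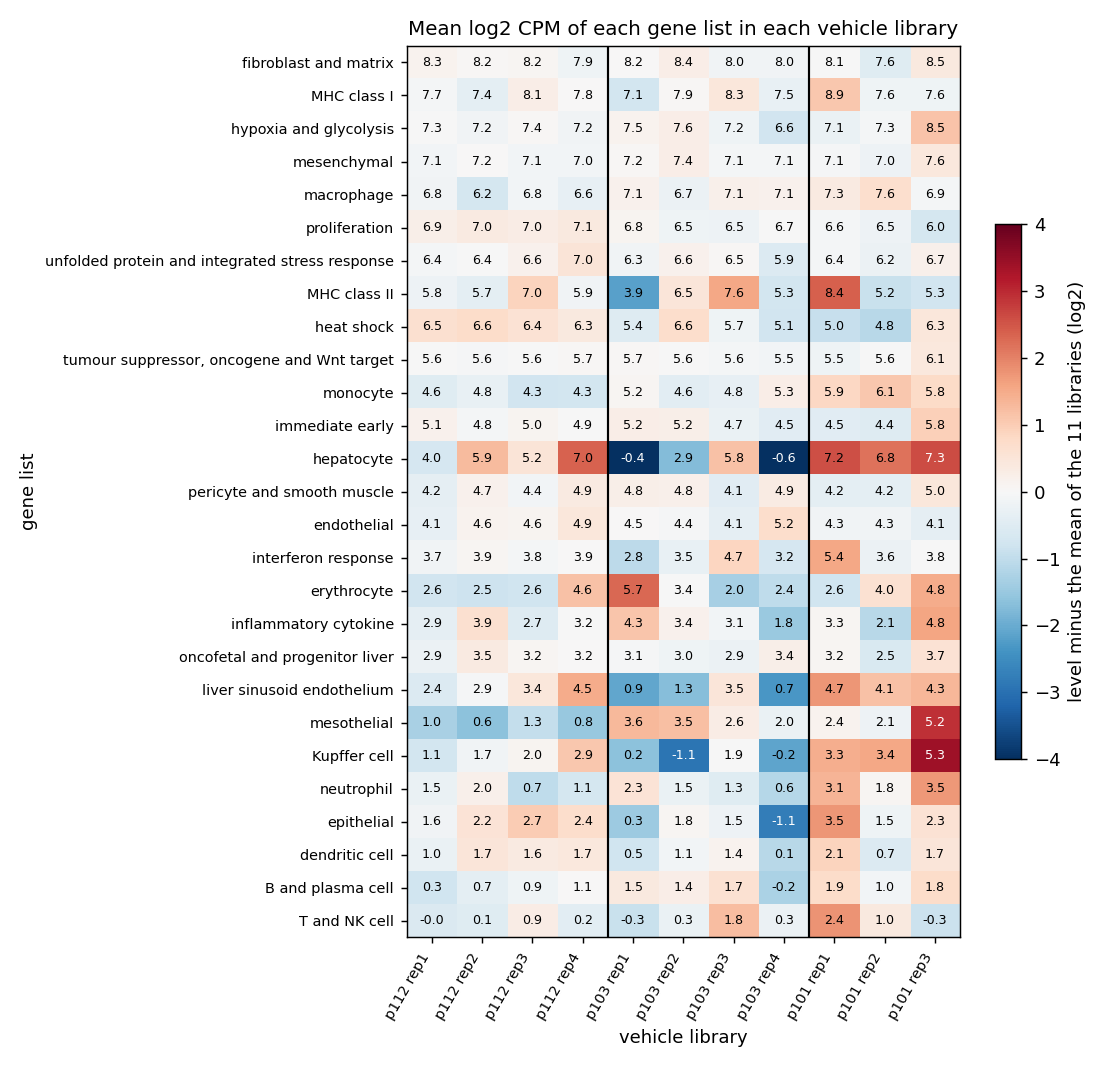
Mean log2 CPM of gene lists (from top to bottom) in each of the 11 vehicle libraries (from left to right, grouped by experiment), printed in the cells and coloured by the difference from the list's mean over the libraries (red higher, blue lower). The hepatocyte list runs from -0.6 to 7.3, while the mesenchymal list stays between 7.0 and 7.6.

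Other stromal lists were steadier. The endothelial list (22 genes) lay between 4.09 in anti-PD1 replicate 3 and 5.16 in DC-101 replicate 4. Pecam1, an endothelial junction protein, had 52.9, 77.6, 65.1 and 83.7 CPM in the dose, 79.5, 67.1, 56.1 and 149 CPM in the DC-101 and 44.7, 85.7 and 35.4 CPM in the anti-PD1 libraries. Kdr, the VEGF receptor that DC-101 binds, had 29.3, 55.4, 41.5 and 60.2 CPM in the dose libraries and 27.6, 17.3 and 30.1 CPM in the anti-PD1 libraries, and it was lower in the latter (log2 difference -0.90, SE 0.27, adjusted p 0.049), although the groups overlapped. Of the list, 2 genes were lower in that pair, Kdr and Mmrn2, a matrix protein of vessels, where 5.79% of all genes were. The count was 1 without dose replicate 1 and 1 with RLE or total count scaling, and both calls were lost with limma-voom, with no filter on low counts, with all 32 libraries, with the hepatocyte covariate and without any one of dose replicates 2 to 4, DC-101 replicates 1 to 3 or anti-PD1 replicates 1 and 2. The pericyte and smooth muscle list (12 genes) was between 4.12 and 5.00, with Acta2, smooth muscle actin, from 188 CPM in anti-PD1 replicate 3 to 459 CPM in anti-PD1 replicate 1.

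Genes of the mesothelium, the lining of the liver surface and peritoneum, were lowest in the dose experiment. The list (7 genes) was between 0.63 and 1.31 there, between 2.02 and 3.56 in the DC-101 libraries and at 2.42, 2.07 and 5.21 in the anti-PD1 libraries, so the dose libraries did not overlap with the others. Of the 7 genes 5 were higher in the anti-PD1 than in the dose experiment, where 7.66% of all genes were: Msln, Upk3b, Upk1b, Lrrn4 and Muc16. Upk3b, a uroplakin, had 5.70, 2.44 and 49.2 CPM against 0.296 to 1.27 CPM (log2 difference 4.46, SE 0.98, adjusted p 0.013). Msln, mesothelin, had 74.1, 297 and 319 CPM against 31.4 to 71.0 CPM (2.29, SE 0.43, adjusted p 0.0055). In the DC-101 libraries Upk3b was at 2.46 to 13.1 CPM and Msln at 77.8 to 133 CPM, with adjusted p of 0.064 and 0.15 against the dose experiment. Without dose replicate 2, dose replicate 4 or anti-PD1 replicate 3, 3 genes of the list were past the threshold, and 4 without the 3 libraries that stood apart. The count was 2 with limma-voom and 2 of 6 in the fit over genes with little shared sequence. In the DC-101 and dose pair DESeq2 called 5 of the 7 genes, and edgeR 4, 3 or 2 without anti-PD1 replicate 3, 2 or 1 and 1 without DC-101 replicate 3 or 4.

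A single library carried skeletal muscle genes. DC-101 replicate 4 had 144 CPM of Acta1, skeletal muscle actin, 37.3 CPM of Tnnt3, 22.8 CPM of Myh4 and 20.3 CPM of Ckm, which are a troponin, a myosin and the muscle creatine kinase. In each of the other 10 libraries Acta1, Myh4 and Ckm were at or under 0.325 CPM. Exocrine pancreas, adipocyte and mast cell lists had a single tested gene each, and Adipoq, Lep, Mcpt8 and Pnlip were at or under 0.0862 CPM in all libraries. Hbb-bs, a beta-globin of red cells, was found in all libraries, with 1540 CPM in DC-101 replicate 1, 399 CPM in dose replicate 4 and from 58.5 to 441 CPM in the rest.

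**Figure D3:**
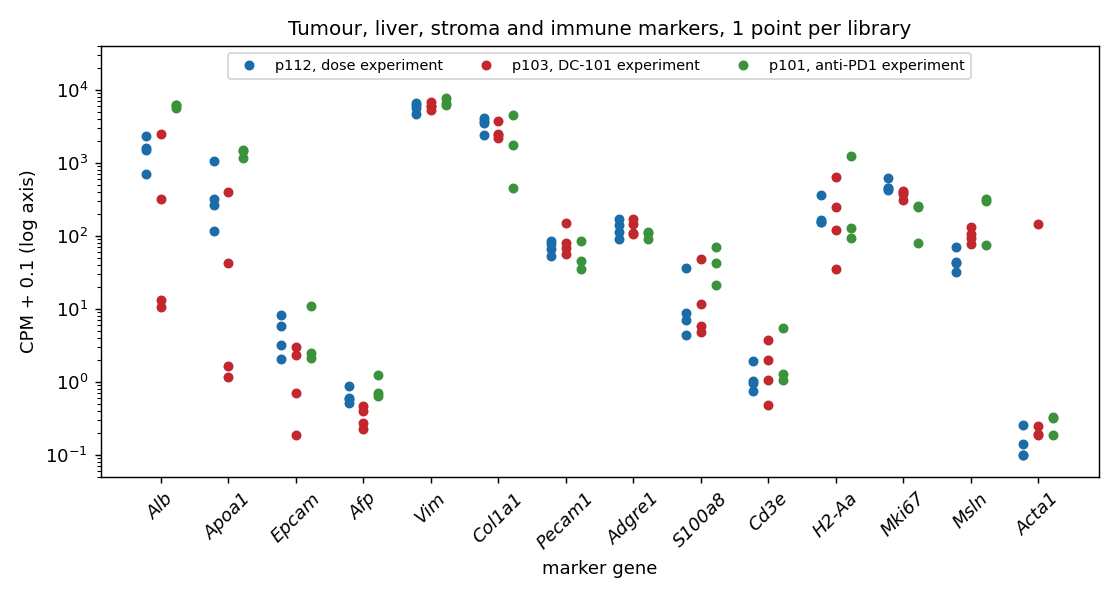
Level of selected tumour, liver, stroma and immune marker genes in CPM plus 0.1 (log axis), with 1 point per vehicle library coloured by experiment. Vim and Adgre1 points lie close together, Alb and Apoa1 are widely spread, and Acta1 is high only in DC-101 replicate 4, at 144 CPM.

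Macrophage genes were counted in every library. The macrophage list (18 genes) lay between 6.23 in dose replicate 2 and 7.61 in anti-PD1 replicate 2. The monocyte list (6 genes) was between 4.31 and 6.15 and the neutrophil list (17 tested genes) between 0.62 and 3.51. The T and NK cell list (22 tested genes) was between -0.32 and 2.38, the dendritic cell list (10 genes) between 0.14 and 2.14, and the B and plasma cell list (7 tested genes) between -0.17 and 1.85. Adgre1, a surface receptor that marks mouse macrophages, had 140, 90.8, 168 and 113 CPM in the dose, 110, 144, 172 and 105 CPM in the DC-101 and 109, 89.4 and 111 CPM in the anti-PD1 libraries, with all groups overlapping. Csf1r, the receptor of the macrophage growth factor, was between 316 and 702 CPM.

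Some macrophage genes differed between experiments although Adgre1 and Csf1r did not pass the test. Of the 18 genes 5 were higher in the anti-PD1 than in the dose experiment, where 7.66% of all genes were, among them Cd163, Lyz2, Mertk and Msr1. Cd163, a haemoglobin scavenger receptor, had 2.52, 2.25, 1.94 and 4.54 CPM in the dose libraries, 90.4, 2.18, 5.59 and 47.5 CPM in the DC-101 libraries and 8.99, 128 and 120 CPM in the anti-PD1 libraries. The dose and anti-PD1 groups did not overlap (log2 difference 4.92, SE 1.25, adjusted p 0.027), while within the DC-101 experiment replicates 1 and 4 stood far above replicates 2 and 3. Mertk, a receptor for engulfing dead cells, had 7.05 to 10.8 CPM in the dose, 12 to 58.1 CPM in the DC-101 and 33.9 to 56.9 CPM in the anti-PD1 libraries, and was higher than in the dose experiment in both (1.86, adjusted p 0.013, and 2.37, adjusted p 0.0038). It was 1 of 2 of the 18 genes that were higher in the DC-101 than in the dose experiment, where 3.36% of all genes were. Without dose replicate 2, 3 or 4 that count was 1, without DC-101 replicate 2 or 3 it was 4, and both calls were lost without the 3 libraries that stood apart, with the hepatocyte covariate and in the fit over genes with little shared sequence. The count of 5 was 2 without dose replicate 1, 3 or 4, 3 without dose replicate 2, 3 without anti-PD1 replicate 2 and 9 without anti-PD1 replicate 3, and 2 without the 3 libraries that stood apart. It was 2 with all 32 libraries in the fit, and 1 of 17 in the fit over genes with little shared sequence. Cd163 lost its call without any one of the dose libraries and without anti-PD1 replicate 2.

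Of the 6 monocyte genes 2 were higher in the anti-PD1 than in the dose experiment, where 7.66% of all genes were. Chil3, a chitinase-like secreted protein, had 10.1, 18.8 and 17.5 CPM in the anti-PD1 libraries and 0.0818 to 0.474 CPM in the dose libraries (log2 difference 5.81, SE 0.98, adjusted p 0.0027), and 0.182 to 3.41 CPM in the DC-101 libraries (3.33, adjusted p 0.038). The call against the DC-101 experiment was lost without dose replicate 1 or 3, DC-101 replicate 1, 2 or 4, or anti-PD1 replicate 1 or 2, without the 3 libraries that stood apart, with all 32 libraries, with no filter on low counts and with the hepatocyte list level as a covariate. That level did not overlap between these groups. Chil3 shares 26.9% of its windows with other genes. F13a1, a clotting factor made by macrophages, was the other (2.95, adjusted p 0.022). The count of 2 was 1 without dose replicate 2, 3 or 4, without anti-PD1 replicate 2, with no filter on low counts and without the 3 libraries that stood apart, and 3 without anti-PD1 replicate 3. Ccr2, the chemokine receptor of inflammatory monocytes, had 128 to 170 CPM in the dose libraries, 51.7 to 119 CPM in the DC-101 libraries and 66.5 to 127 CPM in the anti-PD1 libraries (adjusted p at least 0.14).

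A T cell gene and an MHC class II gene were highest in the same libraries. Cd8a, a co-receptor of cytotoxic T cells, had 2.84, 1.54, 4.76 and 1.39 CPM in the dose, 0.423, 3.23, 10.6 and 2.11 CPM in the DC-101 and 15.2, 3.90 and 0.721 CPM in the anti-PD1 libraries. H2-Aa, a chain of MHC class II, had 166, 153, 364 and 156 CPM, then 34.8, 249, 633 and 122 CPM, then 1233, 129 and 93.3 CPM. The same library was highest for both genes in each experiment, namely dose replicate 3, DC-101 replicate 3 and anti-PD1 replicate 1. Those libraries also had the highest MHC class I levels of their experiments (8.07, 8.27 and 8.89). Cxcl10, a chemokine induced by interferon, reached 56.0 CPM in anti-PD1 replicate 1 and was between 2.59 and 13.1 CPM elsewhere. The interferon response list (24 genes) was highest in that library (5.39) and lowest in DC-101 replicate 1 (2.80). Pdcd1, which encodes the T cell receptor PD1, lay between 0.549 and 7.88 CPM, and Cd274, which encodes its ligand, was higher in the anti-PD1 (8.67 to 24.9 CPM) than in the dose libraries (4.94 to 9.48 CPM; log2 difference 1.5, SE 0.38, adjusted p 0.024), although the groups overlapped.

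Many cell cycle genes were lower in the anti-PD1 than in the dose experiment. The proliferation list (26 genes) was at 6.92, 7.04, 6.97 and 7.09 in the dose libraries, at 6.79, 6.53, 6.48 and 6.67 in the DC-101 libraries and at 6.62, 6.48 and 6.0 in the anti-PD1 libraries, so the dose libraries lay above all others. Of the 26, 14 were lower in the anti-PD1 than in the dose experiment, where 5.79% of all genes were, and 3 (Ccnb1, Pcna and Mcm7) were lower in the DC-101 than in the dose experiment, where 3.95% of all genes were. The median log2 differences were -0.59 and -0.35, against 0.06 and 0.00 for all genes. Mki67, the Ki-67 antigen, had 429, 622, 459 and 454 CPM in the dose libraries, 371, 404, 311 and 413 CPM in the DC-101 libraries and 248, 80.3 and 256 CPM in the anti-PD1 libraries (log2 difference from dose to anti-PD1 -1.33, SE 0.34, adjusted p 0.025). Bub1b, a checkpoint kinase of mitosis, had 132 to 174 CPM in the dose and 65.4 to 89.8 CPM in the anti-PD1 libraries (-1.01, SE 0.16, adjusted p 0.0021). The count of 14 was 9 without dose replicate 1 or 3, 8 without dose replicate 2 or 4, and 6 without the 3 libraries that stood apart. It was 5 with all 32 libraries in the fit, 9 with no filter on low counts and 9 with the hepatocyte list level as a covariate, a level of 6.83 to 7.27 in the anti-PD1 and 3.99 to 7.0 in the dose libraries. In a fit over protein-coding genes with little shared sequence, 2 of 13 tested members were past the threshold in the anti-PD1 and dose pair, and the 3 genes of the DC-101 and dose pair were not among those tested. Without anti-PD1 replicate 2 or 3, the DC-101 and dose pair had 5 or 7 lower genes.

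Hypoxia genes were highest in a single library. The hypoxia and glycolysis list (20 genes) was at 8.48 in anti-PD1 replicate 3, where the others were between 6.58 and 7.6. Slc2a1, the glucose transporter of hypoxic cells, had 662 CPM there and 99.8 to 294 CPM elsewhere, and Vegfa, the main vessel growth factor, had 570 CPM there and 45.2 to 267 CPM elsewhere. Of the list, 3 genes (Adm, Ankrd37 and Ddit4) were higher and 2 (Pgam1 and Pgk1) lower in the anti-PD1 than in the dose experiment, where 7.66% of all genes were higher and 5.79% lower. Without anti-PD1 replicate 3 these counts were 3 and 5 and the median of the list went from 0.62 to -0.02, without anti-PD1 replicate 1 they were 5 and 1, without anti-PD1 replicate 2 they were 4 and 1, and without the 3 libraries that stood apart 1 and 1. Without dose replicate 1 or 2 they were 3 and 1, and without dose replicate 3 they were 2 and 1. The latter are glycolytic enzymes that share 36.2% and 53.9% of their windows with other genes. The heat shock list (8 genes) was between 6.28 and 6.60 in the dose libraries and between 4.77 and 6.58 elsewhere. Its 3 genes that were lower than in the dose experiment in both other experiments, where 3.95% (DC-101) and 5.79% (anti-PD1) of all genes were, were Hsp90aa1, Hspd1 and Hspe1, chaperones of which 47.5%, 39.7% and 18.4% of the windows are shared.

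A set of genes was almost the same in all 11 libraries. Of 6423 protein-coding genes with a mean level of at least 5 log2 CPM, 938 (14.6%) had an SD under 0.2 over the libraries. The steadiest was Tfg, a protein of the sites where vesicles leave the endoplasmic reticulum (GRCm38 chromosome 16, 56690332 to 56717450, minus strand). It had 87.9, 87.1, 82.0 and 89.6 CPM in the dose libraries, 90.7, 78.7, 88.0 and 84.0 CPM in the DC-101 libraries and 82.5, 86.0 and 78.2 CPM in the anti-PD1 libraries, an SD of 0.07 on the log2 scale. Next were Srsf9, a splicing factor (53.1 to 62.6 CPM), Cd3eap, a subunit of RNA polymerase I (41.7 to 49.1 CPM), H2afy, a histone variant (102 to 121 CPM), and Foxp1, a transcription factor (137 to 160 CPM). Mfsd1, a membrane transporter, Gtf2f1, a general transcription factor, Rtn3, which shapes the endoplasmic reticulum, Wdr82, a partner of a histone methyltransferase, and Mrpl37, of the mitochondrial ribosome, completed the 10, each with an SD of 0.08. Among them Mfsd1 had 152 to 185 CPM.

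Gene families differed in how many members were steady. The families were picked after the values were seen, so the counts are a description. Of 28 vacuolar sorting genes with a mean level of at least 5 log2 CPM, 13 (46.4%) were among the stable genes, and of 10 serine/arginine splicing factors 3 (30%). Translation initiation factors (7 of 46) and mitochondrial ribosomal proteins (7 of 47) were near the share of all genes. Cytosolic ribosomal proteins (2 of 81), proteasome subunits (2 of 36), subunits of respiratory complex I (0 of 31) and collagens (0 of 21) were mostly not steady. Without anti-PD1 replicate 2, 1755 genes were stable. The ribosomal protein share of that library was the highest (9.63%) and its collagen share the lowest (0.698%, against 1.47% to 2.84%).

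Common reference genes were a mixed group. Sdha, a subunit of respiratory complex II, had an SD of 0.16, with 219 to 231 CPM in the dose, 169 to 180 CPM in the DC-101 and 202 to 209 CPM in the anti-PD1 libraries, so that each experiment had its own narrow range. Gusb (SD 0.19), Tbp (0.21) and Actb (0.23) also kept within a narrow range, and Sdha and Gusb were the only 2 of the 16 reference genes among the stable genes. Pgk1 (0.88), Gapdh (0.74), Polr2a (0.63) and Rpl13a (0.59) were among those that varied most. Gapdh, a glycolytic enzyme, had 1312 to 1862 CPM in the dose libraries, 452 to 800 CPM in the DC-101 libraries and 658, 646 and 1658 CPM in the anti-PD1 libraries (log2 difference from dose to DC-101 -1.32, SE 0.31, adjusted p 0.024). Ywhaz, a 14-3-3 protein, had 429 to 457 CPM in the dose libraries and 209 to 291 CPM in the others (-1.03 and -0.75, adjusted p 0.00025 and 0.003). Gapdh and Ywhaz share 24.7% and 15.2% of their windows with other genes.

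**Figure D4:**
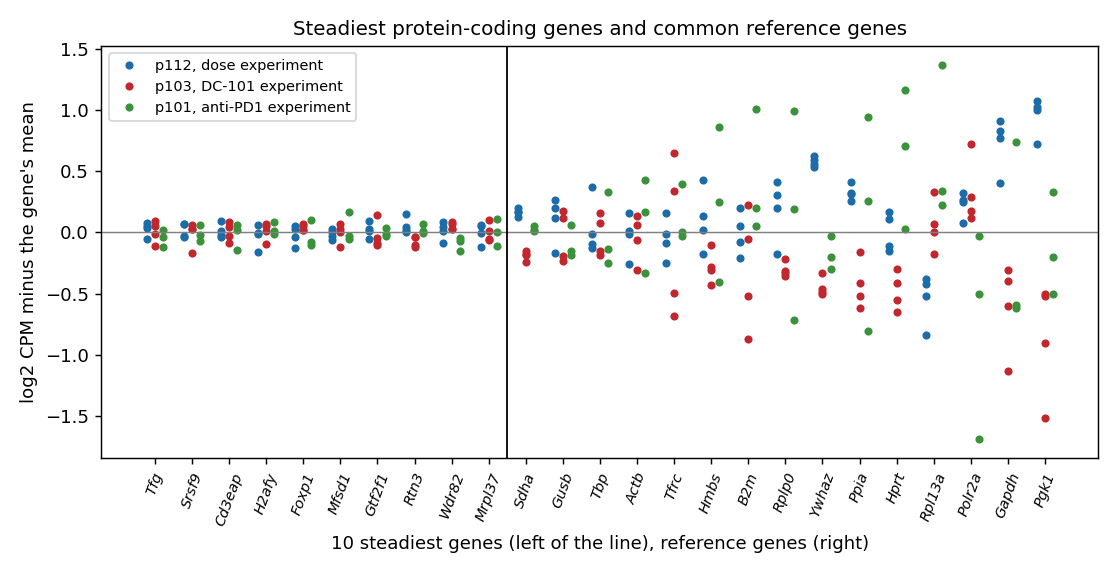
Deviation of log2 CPM from the gene's mean for the 10 steadiest protein-coding genes (left of the line) and 15 common reference genes (right), with 1 point per vehicle library coloured by experiment. The steadiest genes stay close to 0, while Pgk1, Gapdh and Ywhaz separate the dose libraries from the DC-101 libraries.

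The genes that varied within an experiment were counted as protein-coding genes with an SD above 1 and a mean level of at least 1 log2 CPM in that experiment. They were 327 of 12048 (2.71%) in the dose, 306 of 11751 (2.6%) in the DC-101 and 1380 of 12217 (11.3%) in the anti-PD1 experiment. The dose and DC-101 sets shared 75 genes (22.9% and 24.5% of them), the dose and anti-PD1 sets 109 (33.3% and 7.90%), and the DC-101 and anti-PD1 sets 154 (50.3% and 11.2%). Some variable genes were under the level minimum in the other experiment and could not be shared. Of the dose genes 108 reached it in the DC-101 and 309 in the anti-PD1 experiment, of the DC-101 genes 270 reached it in the dose and 283 in the anti-PD1 experiment, and of the anti-PD1 genes 1236 reached it in the dose and 1123 in the DC-101 experiment. In the dose experiment, replicate 1 was lowest for 91.1% and replicate 4 highest for 87.2% of the variable genes. In the DC-101 experiment the extremes were spread over all 4 libraries: replicates 1 to 4 were highest for 19.9%, 14.1%, 52.0% and 14.1% and lowest for 29.4%, 13.1%, 11.4% and 46.1%. In the anti-PD1 experiment replicate 3 was highest for 54.1% and replicate 2 lowest for 59.9%. The dose count was 193 without replicate 1 and 156 without replicate 4. The anti-PD1 count was 761 without replicate 3 and 2575 without replicate 1.

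Most hepatocyte genes were variable in the dose and DC-101 experiments. At a mean level of at least 1 log2 CPM, 30 of 35 list members were variable in the dose experiment, where 2.71% of all genes were, and 24 of 25 in the DC-101 experiment, where 2.6% were. In the anti-PD1 experiment 3 of 37 were, near the share of all genes there (11.3%). In the DC-101 experiment the largest SDs were those of Apoa4, Fga, Serpina7, Pzp and Igfbp1, an apolipoprotein, a fibrinogen chain, a thyroxine carrier, a protease inhibitor and a binding protein of insulin-like growth factors, all secreted by liver. Apoa4 had 0.972, 76.5, 193 and 0.129 CPM in DC-101 replicates 1 to 4, and Fga had 4.06, 144, 765 and 1.85 CPM. Replicates 1 and 4 were the low ones for both. In the dose experiment Sult2a8, a liver sulfotransferase, had 0.137, 7.23, 0.832 and 18 CPM, with the lowest value in replicate 1 and the highest in replicate 4. Of 23 cytochrome P450 enzymes 14 were variable in the dose experiment, and of 25 serpins 13 were.

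Other top genes of the dose experiment were high in replicate 2 alone. Syn3, a synaptic vesicle protein, had 295 CPM there and 0.532 to 1.03 CPM in the other dose libraries. Gm20721 had 329 CPM against 1.01 to 1.39 CPM, Wdr38 200 CPM against 0.549 to 1.07 CPM, and Snx22 106 CPM against 0.275 to 1.03 CPM. Each of these genes has exons that overlap an abundant gene on the opposite strand, Timp3 (1976 CPM in that library), Gnas (843 CPM), Rpl35 (585 CPM) and Ppib (311 CPM). This is the library with the high antisense and mt-Nd6 shares. Whether the counts of a gene and its opposite partner can be told apart depends on the strand setting of the counting, which is not stated. Without genes that have such an overlap 258 of 8290 genes (3.11%) were variable in the dose, 247 of 8056 (3.07%) in the DC-101 and 1009 of 8439 (12%) in the anti-PD1 experiment. With them the shares were 2.71%, 2.6% and 11.3%, so the exclusion did not lower the share.

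In the anti-PD1 experiment, where 11.3% of all genes were variable, the variable genes came from many groups. Of 27 collagens 17 were variable there, of 91 cytosolic ribosomal proteins 19, and of 37 cytochrome P450 enzymes 14, families that were picked after the values were seen. Anti-PD1 replicate 2, with few counts on long genes, had the highest ribosomal protein share (9.63%) and the lowest collagen share (0.698%). Its part in these counts was not tested. The SDs rest on 3 libraries here and on 4 in each other experiment. The dose experiment had no variable collagen and 1 variable ribosomal protein, and the DC-101 experiment 2 and none. Of 22 chemokines 15 were variable in the anti-PD1 experiment, against 9 of 21 in the DC-101 and 2 of 20 in the dose experiment. Of the lists, MHC class II had 7 of 7 variable genes, T and NK cells 9 of 10, neutrophils 10 of 13 and the interferon response 13 of 23 in the anti-PD1 experiment, and 6 of 7, 5 of 7, 6 of 9 and 9 of 23 in the DC-101 experiment. The largest SDs were those of Hamp, Sult1e1, Serpinb2, Padi4 and Zrsr1. Hamp, the iron hormone hepcidin, had 29.8, 0.379 and 0.676 CPM in replicates 1 to 3. Serpinb2, a protease inhibitor of activated macrophages, had 1.28, 0.379 and 76.1 CPM, and Padi4, a neutrophil enzyme that converts arginine in proteins to citrulline, had 0.557, 0.325 and 57.2 CPM. A single library was high for each of them, replicate 1 for Hamp and replicate 3 for Serpinb2 and Padi4. Zrsr1, an imprinted splicing factor gene inside an intron of Commd1, had 1344 CPM in replicate 2 and 15.9 to 31.9 CPM in all other 10 libraries. Commd1, on the opposite strand, was also highest in that library, at 53.8 CPM.

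A small set of 19 genes was variable in all 3 experiments. It held genes expressed in liver (Nat8f2, Mug1, C8a, Fabp1, Adh1, Gsta3, Gpd1, Tmprss6 and Cideb), the alpha-globins Hba-a1 and Hba-a2, and genes of inflammation (Cxcl2, Il33, Serpinb2, S100a9 and Hdc), with G0s2, Tnxb and Reep6 as the rest. This grouping was made by hand and not tested. Of the 19, 1 is on the hepatocyte list and 4 have exons that overlap a gene on the opposite strand. Nat8f2 had the largest pooled SD of them (2.77), with 14.6, 62.8, 39.0 and 134 CPM in the dose, 0.169, 9.19, 46.8 and 0.0862 CPM in the DC-101 and 47.3, 3.09 and 38.6 CPM in the anti-PD1 libraries. S100a9, a calcium-binding protein of neutrophils, had 12.2 to 77.5 CPM, 4.78 to 94.3 CPM and 23.1 to 133 CPM, and its highest libraries were dose replicate 2, DC-101 replicate 1 and anti-PD1 replicate 3. Nat8f2 and S100a9 thus had different highest libraries in each experiment.

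The vehicle groups were also compared with each other, to ask how far untreated tumours of the 3 batches differ. A batch of animals, a batch of libraries and any control antibody or other treatment course in the anti-PD1 experiment cannot be told apart here. By the edgeR quasi-likelihood F-test 2852 of 16540 genes (17.2%) differed between the experiments. In the pairwise contrasts the DC-101 and dose experiments differed in 1209 genes (7.31%; 555 higher and 654 lower in DC-101), the anti-PD1 and dose experiments in 2225 (13.5%; 1267 higher and 958 lower in anti-PD1) and the anti-PD1 and DC-101 experiments in 1653 (9.99%; 870 higher and 783 lower in anti-PD1). The comparisons share libraries and are not independent. Without dose replicate 1 or 3 the F-test called 1897 and 1772 genes and the anti-PD1 and dose pair 1365 and 1411, and without anti-PD1 replicate 3 they called 7153 and 5731. Scaling by total counts moved the median difference of all genes in the last pair from 0.12 to -0.03, and the share of higher among called genes from 52.6% to 33.2%. In the DC-101 and dose pair it moved the median from 0.00 to 0.11 and the share of higher from 45.9% to 55.1%.

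Processed pseudogenes were the class called most often in every pair, with larger shares in the pairs with the dose experiment. Differences between pairs were not tested. Processed pseudogenes, intronless copies of genes, were called in 50.1% of 1292 between the DC-101 and dose experiments, in 56% between anti-PD1 and dose, and in 16.3% between anti-PD1 and DC-101. Protein-coding genes that share at least 10% of their 50-base windows with another gene were called in 25.9%, 23.5% and 8.12%, in the same order. Protein-coding genes with under 1% shared were called in 0.888% (94 of 10584), 8.27% and 10.2%. A fit over such genes alone left 4 of 10595 between the DC-101 and dose experiments, among them Asmt, Ube2s and Cadps2, 332 between anti-PD1 and dose, and 1061 between anti-PD1 and DC-101. Few coding genes with under 1% shared windows were thus past the threshold between the DC-101 and dose vehicle tumours.

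**Figure D5:**
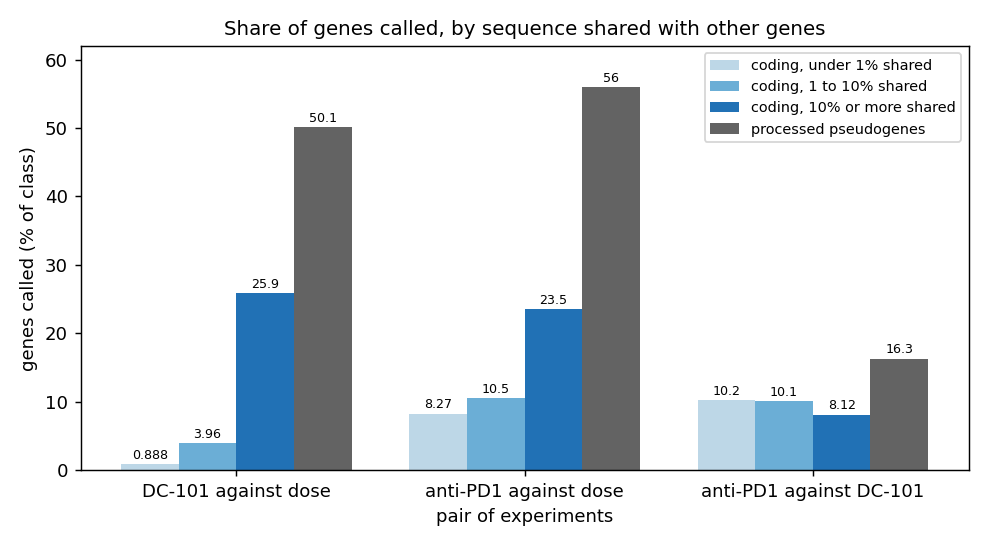
Share of genes called by edgeR at an adjusted p under 0.05 (% of the class) for each pair of experiments, as bars by class of gene: protein-coding genes by the share of their 50-base windows found in another gene, and processed pseudogenes. In the pairs with the dose experiment the share rises from 0.888% and 8.27% for little-shared genes to 50.1% and 56% for pseudogenes, while the 3 coding classes of the last pair lie between 8.12% and 10.2%.

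The lowest differences in both pairs with the dose experiment were 3 processed pseudogenes counted almost only there. Gm10736 had 266, 325, 285 and 272 CPM in the dose libraries and at most 0.172 CPM in the other 7. Rps2-ps10 had 732, 807, 654 and 676 CPM and at most 0.188 CPM, and Gm10123 had 153, 126, 149 and 159 CPM and at most 0.108 CPM. Gm10123 had no count in the DC-101 libraries and was at least 1164-fold lower there than in the dose libraries, against a floor of 3 counts per library (adjusted p 2.9e-06). For the others the fitted log2 differences from dose to DC-101 were -11.83 (adjusted p 8.1e-08) and -12.82 (adjusted p 2.5e-07), sizes that depend on the prior count because the lower group had 0 to 5 counts.

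Gm10736 and Gm10123 hold stretches without a single difference from the coding sequence of Rpl41 and Ppia, as the sequences from the Gencode transcripts (GRCm38) show. All letters are in lower case because no base differs within a pair. Gm10736 (chr13:111593537-111593611, minus strand) lies in 1 block, and the same 75 bases are the coding sequence of Rpl41 (chromosome 10, minus strand, spliced from 3 exons at 128548949 to 128548960, 128548658 to 128548680 and 128548390 to 128548429).
Gm10736: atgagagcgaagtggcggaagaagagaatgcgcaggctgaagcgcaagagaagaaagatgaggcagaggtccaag
Rpl41: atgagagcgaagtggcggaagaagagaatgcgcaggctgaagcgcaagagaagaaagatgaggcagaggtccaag
Gm10123 (chr9:96895658-96895777, plus strand) shares its first 120 bases with the start of the coding sequence of Ppia (chromosome 11, plus strand, spliced from 3 exons at 6415911 to 6415979, 6418101 to 6418131 and 6418226 to 6418245).
Gm10123: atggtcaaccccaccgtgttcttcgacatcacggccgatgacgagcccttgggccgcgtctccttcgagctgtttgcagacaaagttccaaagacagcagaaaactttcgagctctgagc
Ppia: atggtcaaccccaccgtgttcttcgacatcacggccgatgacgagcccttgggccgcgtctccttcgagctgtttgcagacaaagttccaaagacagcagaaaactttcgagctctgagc

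Rps2, a ribosomal protein, had 473 to 706 CPM in the dose, 618 to 677 CPM in the DC-101 and 530 to 700 CPM in the anti-PD1 libraries. With its copy added, the mean was 1334 CPM in the dose, 646 CPM in the DC-101 and 605 CPM in the anti-PD1 libraries. Ppia, cyclophilin A, with its copies had a mean of 1587, 858 and 1410 CPM, and Rpl41 with its copies 1727, 753 and 1557 CPM. The part of the alignment settings in these differences was not tested.

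The highest differences in the pairs with the dose experiment included pseudogenes as well, but also coding genes with little shared sequence. Gm7676, a pseudogene on chromosome 8, had 0 to 0.119 CPM (0 to 2 counts) in the dose libraries, 5.95 to 11.7 CPM in the DC-101 libraries and 7.59 to 8.74 CPM in the anti-PD1 libraries. Of its windows, 24.8% are shared, among them with Ifitm1, an antiviral membrane protein. Ifitm1 itself had 3.98 to 9.74 CPM in the dose, 3.53 to 8.41 CPM in the DC-101 and 9.81 to 30 CPM in the anti-PD1 libraries. Eif3s6-ps4, a pseudogene of the translation factor gene Eif3e, had 0.0818 to 0.317 CPM in the dose libraries and 6.72 to 32.2 CPM in the others.

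Asmt stood out among coding genes. It encodes the last enzyme of melatonin synthesis and lies near the end of the X chromosome (170672644 to 170678054). Shared windows were sought in annotated transcripts only, so a copy outside them would not be seen. The part of the alignment settings in its counts was not tested. It had 1, 2, 1 and 1 counts in the dose libraries, 164, 226, 149 and 150 counts in the DC-101 libraries and 214, 362 and 158 counts in the anti-PD1 libraries (edgeR adjusted p 7.9e-06 and 6.6e-06). Ube2s, an enzyme that extends ubiquitin chains in mitosis, went the other way, with 113, 99.1, 116 and 143 CPM in the dose, 32.5, 37.9, 35.9 and 30.4 CPM in the DC-101 and 24.5, 25.3 and 20.3 CPM in the anti-PD1 libraries (log2 differences -1.79 and -2.33, adjusted p 2.6e-05 and 1e-05). Cadps2, a protein of vesicle release, had 0.458 to 2.09 CPM in the dose, 12.5 to 20.4 CPM in the DC-101 and 9.22 to 18.4 CPM in the anti-PD1 libraries (3.70 and 3.57, adjusted p 0.00028 and 0.00046). For all 3 genes the dose libraries were separate from every other library, and the DC-101 and anti-PD1 differences were not past the threshold.

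Further coding genes without shared sequence or opposite overlap were named by the same rule. Between the DC-101 and dose experiments Crispld2, a secreted protein, was higher (3.21, SE 0.83, adjusted p 0.038), and Hpgd, which breaks down prostaglandins (-2.32, SE 0.54, adjusted p 0.021), Tfpi2, a protease inhibitor (-1.53, SE 0.40, adjusted p 0.042), and Rida, a liver deaminase (-1.19, SE 0.32, adjusted p 0.045), were lower. Crispld2 had 30.4 and 29.4 CPM in DC-101 replicates 1 and 4 but 3.38 and 3.55 CPM in replicates 2 and 3, against 1.51 to 2.02 CPM in the dose libraries. Each of these 4 lost its call in several fits that left out 1 library. Between the anti-PD1 and dose experiments Ms4a8a, a membrane protein, was at 1.84, 8.94 and 44.0 CPM against 0.119 to 0.205 CPM (adjusted p 0.0059). Cdh22, a cadherin (-2.77, SE 0.69, adjusted p 0.022), Dynap (-2.86, SE 0.77, adjusted p 0.032) and Ppm1e, a phosphatase (-2.71, SE 0.74, adjusted p 0.034), were lower.

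Between the anti-PD1 and DC-101 experiments the 3 genes with the highest difference under the rule were Tat, Sult1d1 and Gnmt. Tat had 19.1, 225 and 107 CPM in the anti-PD1 libraries and 0.0845, 0.675, 4.23 and 0.345 CPM in the DC-101 libraries (log2 difference 6.47, SE 1.36, adjusted p 0.025). Sult1d1, a sulfotransferase, had 10.9, 64.2 and 12.1 CPM against 0, 0.15, 1.18 and 0 CPM (6.46, SE 1.29, adjusted p 0.021), and Gnmt, a glycine methyltransferase, 19.2, 149 and 53.2 CPM against 0.225 to 4.55 CPM (5.73, SE 1.29, adjusted p 0.03). The lowest were Rtl9, a gene derived from a retrotransposon (-3.31, SE 0.70, adjusted p 0.024), Ppm1e (-3.14, SE 0.75, adjusted p 0.032) and Tnfrsf25, a receptor of the TNF family (-3.09, SE 0.76, adjusted p 0.035). None of the groups overlapped for these 6 genes, which the naming rule required, but each lost its call without DC-101 replicate 4. Without DC-101 replicate 4, 2 or 1 the count of 1653 genes was 157, 282 or 348, without anti-PD1 replicate 1, 2 or 3 it was 911, 725 or 6376, and without dose replicate 1, 3 or 4 it was 814, 637 or 913. It was 61 without the 3 libraries that stood apart and 1 with the hepatocyte list level as a covariate. That level did not overlap between the anti-PD1 and DC-101 libraries, so the fall to 1 was largely fixed by the design.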

How the data were processed

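RNA of BNL-MEA tumours (frozen per the labels, fresh per the study's methods) was made into poly(A)-selected stranded libraries and sequenced. Per the study's methods and processing notes the authors trimmed reads with cutadapt 2.4, aligned them to GRCm38 with STAR 2.7.2a and deposited its raw gene counts, on the Gencode vM19 annotation. Which strand column was taken is not given in the sources used here. The deposited counts were used unscaled. Of the gene identifiers, 99.93% matched the Gencode vM21 annotation used here for names, exon lengths and sequences.

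The 11 vehicle libraries (16767130 to 26392768 counts) were fitted with experiment as the only term by edgeR 4.0.16 (R 4.3.3), with TMM scaling, filterByExpr (minimum count 10, minimum total 15) and the robust quasi-likelihood F-test, two-sided, Benjamini-Hochberg adjusted over 16540 genes at 0.05. For log2 CPM a prior count of 2 was used. Shared windows are 50-base stretches of exons found in another gene. SD, level and list values are descriptions with no test.

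Named genes were the 15 highest by TPM and the highest mitochondrial gene, the 10 steadiest and the reference genes, the 5 with the largest SD in each experiment and the 10 with the largest pooled SD, up to 3 highest and 3 lowest called, non-overlapping genes per pair with a mean level of 0 log2 CPM or more, and genes of the lists. The same pair rule over coding genes with under 1% shared windows and no opposite-strand overlap, the gene families, the window classes and the 19 genes variable in all experiments were chosen after the values were seen. Members and lists were chosen with earlier results of these data known. No 2 vehicle libraries of an experiment agreed within sampling noise (chi-square per degree of freedom 12.9 to 351 over 15 pairs). On simulated counts the fit recovered 77.5% to 80.5% of genes changed by 2 on the log2 scale and 12.5% to 16.5% of those changed by 1 (comparisons with the anti-PD1 experiment and the F-test). Up to 8.33% of the called genes were unchanged ones. The simulation held no library that stood apart, so it does not give the recovery in these data. Alternatives were RLE or total count scaling, limma-voom (limma 3.58.1), DESeq2 1.42.0, other filters, all 32 libraries, a hepatocyte covariate, a replicate block and leaving out libraries. Results of some genes that passed these rules are not reported here.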

Additional observations from a re-analysis of the deposited data

Results flagged for a closer look

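Over the dose and DC-101 experiments, of 4 libraries each, 82 sets of 4 values were tested, and 9 had a single library far from the other 3 by Dixon's criterion, which chance alone meets in about 1 in 20 groups. In the dose experiment, replicate 2 had a mesenchymal list level of 7.17 (7.04 to 7.06 in the others), an antisense share of 0.407% (0.0744% to 0.0836%) and an mt-Nd6 share of 0.846% of mitochondrial counts (0.0445% to 0.0547%). Dose replicate 1 had a dendritic cell list level of 0.97 (1.61 to 1.73 in the others). Dose replicate 4 had an erythrocyte list level of 4.56 (2.53 to 2.59) and a haemoglobin share of 0.0604% (0.0141% to 0.0203%). In the DC-101 experiment, replicate 1 had a haemoglobin share of 0.227% (0.0103% to 0.0182%), replicate 2 a macrophage list level of 6.71 (7.10 to 7.12) and replicate 3 a level of 3.46 for the genes of the sex chromosomes (3.31 to 3.33). The anti-PD1 experiment, with 3 libraries, could not be examined in this way.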

How the results depend on the processing

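Of 179 recomputed counts, 135 stayed within 1.5 times the reported count and 44 did not. The cause was not tested, except where fewer genes or libraries entered by construction. Between the 3 experiments DESeq2 called 4856 genes by its likelihood ratio test. The F-test called 1333 with the hepatocyte level as covariate, 418 over coding genes with under 1% shared windows and 1552 without the 3 libraries that stood apart (1772 to 7153 leaving out 1 library). DC-101 against dose gave 639 with at least 10 counts in every library, 621 with the covariate and 4 over little-shared genes (891 to 1811). Anti-PD1 against dose gave 1457 with at least 10 counts and 332 over little-shared genes (1365 to 5731). Anti-PD1 against DC-101 gave 3731 with DESeq2, 783 with no filter, 938 with all 32 libraries, 1 with the covariate, 1061 over little-shared genes and 61 without the 3 libraries (157 to 6376). The covariate did not overlap between the groups of this last pair and cannot be told apart from that contrast. Replicate numbers did not pair the samples: of 10 same-numbered pairs 1 had a correlation of deviations over 0.1 (-0.41 to 0.33). A block on such numbers uses degrees of freedom without pairing samples, so lower counts with it cannot be read as an effect of the replicates. With the replicate number as a block, the F-test called 1169 genes, anti-PD1 against dose 1040 and anti-PD1 against DC-101 9. In anti-PD1 against dose the block called 6 lower proliferation genes (14 without it), 0 mesothelial (5), 1 macrophage (5), 1 Kupffer (3), 1 monocyte (2) and 0 hypoxia genes higher (3), 0 lower endothelial genes (2) and the same number of lower heat shock genes (3). In anti-PD1 against DC-101 it called 0 oncofetal, hepatocyte, Kupffer, macrophage, monocyte, hypoxia and proliferation genes. With a higher level minimum the variable genes were 157, 110 and 861 and the stable genes 532. Without opposite-strand overlap 619 of 4375 genes were stable (14.1%, against 14.6% of all). Leaving out 1 library gave 156 to 448, 265 to 345 and 761 to 2575 variable genes and 840 to 1755 stable genes. The median transcript length kept 7 of the 15 highest genes, and leaving out 1 library 13 to 15. Total count scaling moved the share of higher among called genes from 45.9% to 55.1% (DC-101 against dose) and from 52.6% to 33.2% (anti-PD1 against DC-101). Of 563 recomputed tests of genes named for a pair, 431 stayed past the threshold, 132 lost it and 0 changed direction. The naming rule took only called genes with groups that did not overlap, so a change of direction was hardly possible.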
